A study of Mus musculus with 6 samples.

Results

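The DNA replication and S-phase genes are the genes whose products license replication origins, unwind the DNA, copy it, supply its building blocks and repack it into chromatin. The set was a list of 40 mouse genes, and a gene entered when the annotation deposited with the reads carried its symbol, which held for 35 of them. Orc1, Orc2, Orc6 and Cdc45 were annotated under the older symbols Orc1l, Orc2l, Orc6l and Cdc45l and are given beside the 35. Gins1 matched no annotation. The annotations named 14765 genes in all, and 11125 had enough reads to be tested, all 35 replication genes among them.

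The cells were Mvt1, a mouse mammary carcinoma cell line of the FVB/N strain, sorted by flow cytometry on the surface protein CD24 into a CD24- and a CD24+ group. Both groups were grown as plates in the same serum-containing medium, and messenger RNA was sequenced from 3 plates of each, a plate giving a library. Sorting acted on a single established line and no independent sorts were described, so every error and p-value measures the spread between plates of a sorted group. What differed with CD24 and what else arose between the sorted groups cannot be told apart, and in bulk RNA fewer cells in S phase and less RNA per cell cannot be told apart.

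The libraries held 9046025 to 25692147 mapped reads, of which 6491833 to 19100844 were annotated to genes, the fewest in CD24+ replicate 1. Levels are counts scaled to 1000000 gene reads (CPM) after edgeR's TMM scaling of the libraries, and changes are log2 fold changes of CD24+ over CD24-. Cd24a, the gene of the sorting protein, followed the labels, with 12.1, 11.5 and 6.99 CPM in the CD24- libraries and 73.4, 85.6 and 72.5 CPM in the CD24+ libraries. Epithelial markers were mixed in these cells labelled as mammary epithelial cancer cells. The luminal keratins Krt8 (556 to 1284 CPM) and Krt18 (200 to 761 CPM) were present in every library, whereas Krt5, Krt14 and Cdh1 were at 0 in the CD24- libraries and at 0 to 2 reads in each CD24+ library. All 3 epithelial markers that could be tested of 8, the keratins Krt8, Krt18 and Krt19, fell, the summed list lying between 1848 and 2042 CPM in CD24- and between 759 and 903 CPM in CD24+. All 4 annotated fibroblast markers rose, with sums of 5.75 to 10.4 CPM against 15.0 to 20.3 CPM. The groups overlapped for Pdgfra, and Col1a1, Col1a2 and Dcn had at most 16 reads in any CD24- library. After quantile normalization with limma only 2 of the 4 were called. Sums stayed under 4.46 CPM for 2 leukocyte and 4 endothelial markers, of which Itgam and Cdh5 fell. The part of these markers in the changes of replication genes was not tested.

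Before S phase the origin recognition complex, Cdc6 and Cdt1 load the ring of Mcm2 to Mcm7 onto origins, and geminin (Gmnn) binds Cdt1 and blocks further loading once replication has begun. Cdc45 and the GINS complex then turn the ring into an active helicase, Mcm10 helps start it, and polymerase alpha with primase lays down primers. The clamp loader RFC places the ring-shaped clamp PCNA, which holds the polymerases delta and epsilon on the template. Many of these genes are transcribed by E2F factors as cells enter S phase, so their messengers are commonly read as a sign of proliferation in tumour cells.

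A deposited value is the count of a distinct 47-nt read sequence, and a gene's level is the sum over such sequences. The coding read with the highest count is shown for 4 genes, because these sequences are what was counted for the genes that fell (Rrm2, Mcm6), rose (Rfc4) or had the highest level per kilobase among those not called (Pcna). Each is written 5′ to 3′ along the coding strand in the order of the messenger, and was deposited as the reverse complement of what is printed.
Rrm2: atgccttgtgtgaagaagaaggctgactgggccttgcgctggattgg
Mcm6: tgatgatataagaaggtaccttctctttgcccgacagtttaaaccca
Rfc4: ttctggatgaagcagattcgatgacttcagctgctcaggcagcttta
Pcna: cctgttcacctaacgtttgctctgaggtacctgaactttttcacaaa
The Rrm2 sequence covered bases 601 to 647 of a coding sequence of 1170 bases, at chr12:25396339-25396385 of mm9. It had 57, 77 and 62 reads in CD24- replicates 1 to 3 and 26, 58 and 48 reads in CD24+ replicates 1 to 3. The Mcm6 sequence, at chr1:130235928-130235974, had 13, 19 and 13 reads against 8, 28 and 14. The Rfc4 sequence, at chr16:23115852-23115898, had 5, 0 and 3 reads against 6, 12 and 8. These are raw counts, and CD24+ replicates 2 and 3 were the deepest libraries, so groups can be compared only after scaling and over the whole gene. The genes' levels rested on many such sequences, 2672 distinct ones for Rrm2, 2701 for Mcm6, 818 for Rfc4 and 2705 for Pcna, whose own sequence at chr2:132075565-132075611 had 38, 40 and 53 reads against 38, 126 and 84.

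Most replication genes did not differ past the threshold. By edgeR's quasi-likelihood test at an adjusted p below 0.05, 8 of the 35 (22.9%) differed, against 46.1% of all genes tested. Gins2, Rfc3, Rfc4 and Rfc5 rose in CD24+, where 23.8% of all genes rose. Gmnn, Mcm6, Mcm10 and Rrm2 fell, where 22.3% of all genes fell. Among genes with a mean of at least 20 CPM, a range that holds every one of the 35 (28.8 to 471 CPM), 45.4% were called. The median change of the 35 was -0.01 on the log2 scale against 0.02 over all genes, with 17 changes above 0 and 18 below. A change below 0.5 on the log2 scale was found for 33 of 35 (94.3%) against 69.6% of all genes and 78.6% of genes with at least 20 CPM. The 27 uncalled genes had 95% intervals that lay within -0.50 and 0.45, and the SE of a change ran from 0.08 to 0.13.

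**Figure D1:**
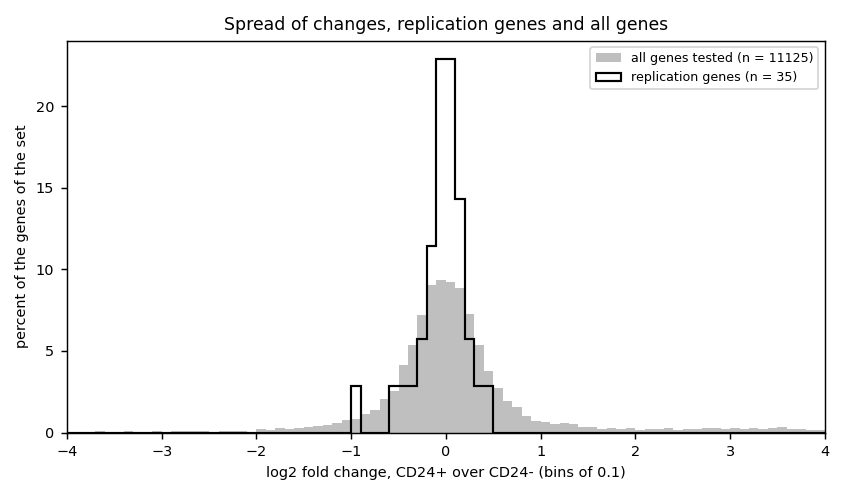
Distribution of log2 fold changes, CD24+ over CD24-, in bins of 0.1, as percent of all 11125 genes tested (grey) and of the 35 replication genes (line). The replication genes stood closer around 0 than all genes, with a median size of change of 0.125 against 0.293, and Rrm2 alone lay near -1. All genes include genes of lower level. A change below 0.5 was found for 94.3% of the 35, against 78.6% of genes with a mean of at least 20 CPM.

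Summed over the 35 genes, replication messengers made up 0.501%, 0.504% and 0.527% of gene reads in the CD24- libraries. They made up 0.440%, 0.521% and 0.452% in the CD24+ libraries. The groups overlapped, because CD24+ replicate 2 lay between CD24- replicates 2 and 3, while CD24+ replicates 1 and 3 were the lowest. Centred on each gene's mean over libraries, the median of the 35 was highest in CD24+ replicate 2 (0.11) and lowest in CD24+ replicate 1 (-0.06). The SD of this median between libraries of a group, pooled over both groups, was 0.08. With a minimum change of 0.3 on the log2 scale, 2 of the 35 rose (22.2% of all genes) and 4 fell (19.8%), against 42% of all genes called in either direction, and none of the 35 passed with a change of 1 or more (14.4% of all genes). Without CD24+ replicate 2 the median change of the 35 genes was -0.08, and Mcm3 (-0.27, edgeR adjusted p = 0.0405), Rpa2 (-0.40, edgeR adjusted p = 0.0101) and Rrm1 (-0.36, edgeR adjusted p = 0.00838) also fell, which gave 2 higher and 7 lower. Of all genes, 22.8% rose and 21.7% fell without that library. Without CD24- replicate 1, 1 of the 35 rose (19.3% of all genes) and 4 fell (16.8%). Without CD24- replicate 2 (20.1% of all genes higher, 17.5% lower) or CD24+ replicate 1 (21.1% and 20.6%), 2 of the 35 rose and 3 fell.

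**Figure D2:**
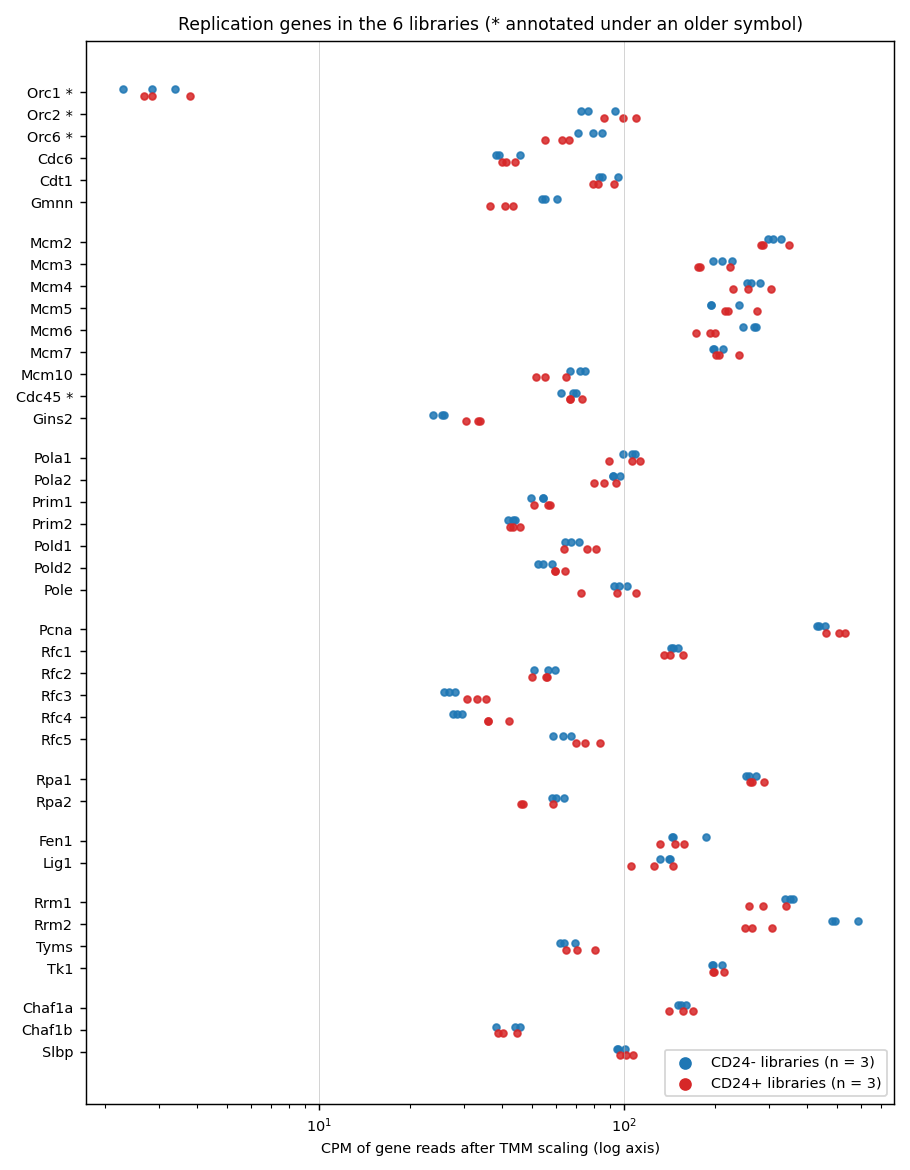
Level of each replication gene in the 6 libraries in CPM of gene reads on a log axis, grouped by role, with CD24- in blue and CD24+ in red and asterisks at genes annotated under an older symbol. Rrm2, Mcm6 and Gmnn are examples with all CD24+ points to the left of the CD24- points, Rfc3, Rfc4 and Gins2 of the opposite, and Tk1 of overlapping points.

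The supply of deoxynucleotides held the largest change. Rrm2 encodes the small subunit of ribonucleotide reductase, which makes deoxynucleotides and is produced in S phase. Rrm2 had 482, 492 and 585 CPM in CD24- and 263, 306 and 250 CPM in CD24+, so that every CD24+ library lay below every CD24- library. It was 0.525-fold in CD24+, a log2 change of -0.93 ± 0.11 (SE; 95% interval -1.17 to -0.69; edgeR adjusted p = 5.72e-05), and it fell under all 15 alternatives of processing, by -1.03 to -0.54. Its reads spanned chr12:25393102-25398970 of mm9.

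Rrm1, which encodes the large subunit of the same enzyme, had 358, 350 and 339 CPM in CD24- and 258, 340 and 287 CPM in CD24+. The groups overlapped by CD24+ replicate 2, and the change of -0.24 ± 0.10 did not pass (edgeR adjusted p = 0.0764). It passed with DESeq2 (adjusted p = 0.0478) and after quantile normalization with limma (adjusted p = 0.0415). Tyms, thymidylate synthase, had levels of 61.8 to 69.4 CPM against 64.8 to 80.3 CPM, a change of 0.14 ± 0.10. Tk1, the S-phase thymidine kinase, had 195, 210 and 196 CPM against 197, 214 and 198 CPM, with a change of 0.02 and a 95% interval of -0.15 to 0.19. The 4 nucleotide genes thus held 1 that fell (22.3% of all genes) and a median change of -0.11.

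Of the licensing genes, 3 were among the 35, and only Gmnn passed, where 46.1% of all genes did, with a median change of the 3 of -0.05. Geminin's gene had 55.4, 54.1 and 60.3 CPM in CD24- and 43.3, 40.9 and 36.4 CPM in CD24+, without overlap. It was 0.710-fold in CD24+, a log2 change of -0.50 ± 0.10 (edgeR adjusted p = 0.00192). Cdt1, the loader that geminin blocks, had 85.1, 83.3 and 95.5 CPM against 82.2, 93.1 and 79.6 CPM, with overlapping groups and a 95% interval of -0.25 to 0.16. Cdc6, the other loader, had 39.0, 38.1 and 45.7 CPM against 41.1, 44.1 and 40.05 CPM and an interval of -0.19 to 0.26. The interval of Gmnn was -0.72 to -0.29, and the differences between these genes were not tested.

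Of the origin recognition subunits annotated under older symbols, Orc6 passed and Orc1 and Orc2 did not. Orc6 had 84.7, 70.7 and 79.6 CPM in CD24- and 66.3, 62.8 and 55.1 CPM in CD24+. It fell by 0.36 ± 0.10 on the log2 scale (edgeR adjusted p = 0.0155) with no overlap between the groups, and did not pass without CD24- replicate 1 (edgeR adjusted p = 0.0757) or CD24+ replicate 3 (edgeR adjusted p = 0.0678). Orc2 had 76.5, 72.7 and 93.7 CPM against 110, 99.5 and 86.3 CPM and a change of 0.28 ± 0.12 (edgeR adjusted p = 0.0797), which passed without CD24- replicate 3 (edgeR adjusted p = 0.0129) and after quantile normalization with limma (adjusted p = 0.0486). Orc1 was at 2.28 to 3.79 CPM in all libraries by its annotation.

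**Figure D3:**
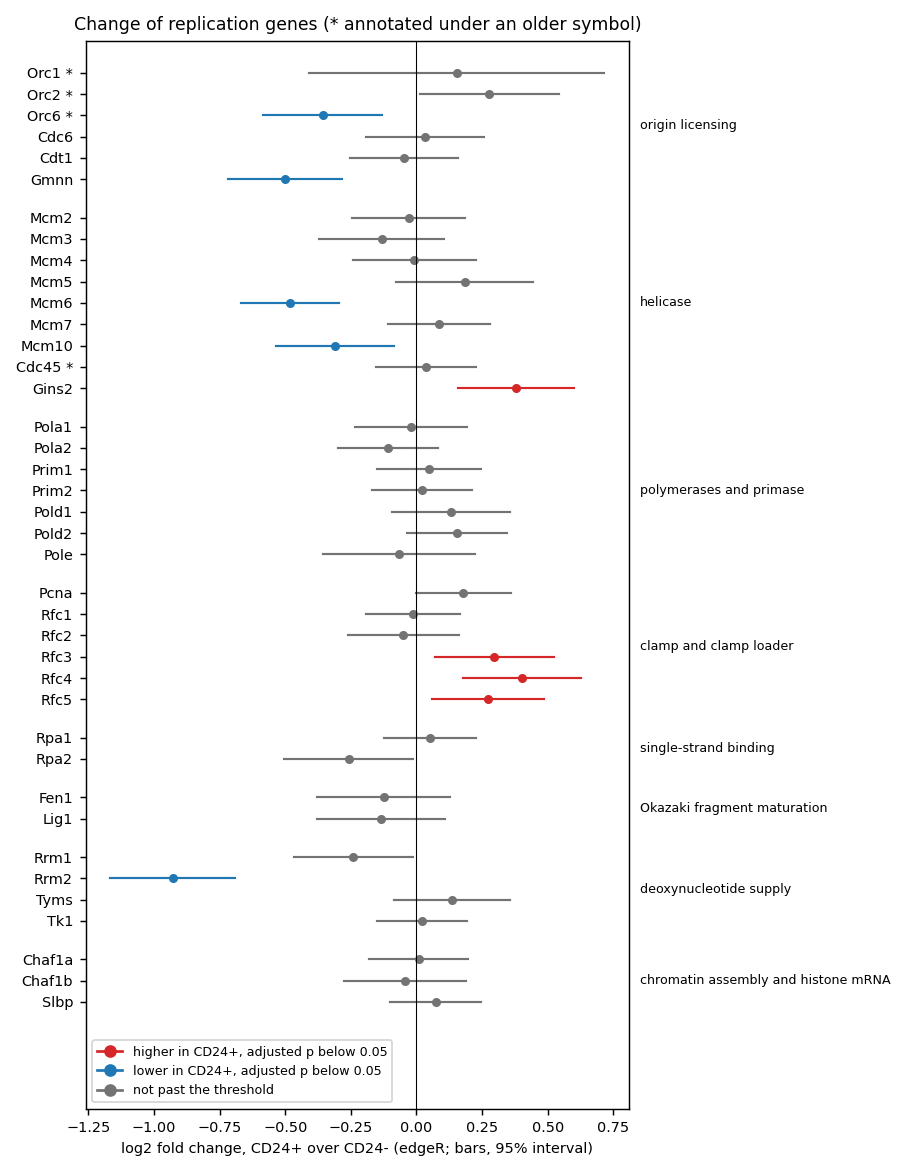
Log2 fold change of each replication gene, CD24+ over CD24-, from edgeR, with its 95% interval as a bar, by role, and asterisks at genes annotated under an older symbol. Blue genes fell and red genes rose at an adjusted p below 0.05, grey genes did not pass, and the changes ran from -0.93 (Rrm2) to 0.40 (Rfc4).

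Of the 8 helicase genes among the 35, Gins2 rose and Mcm6 and Mcm10 fell (23.8% and 22.3% of all genes), and the median change was -0.02. Mcm6 encodes a subunit of the Mcm2 to Mcm7 ring, and had 268, 273 and 247 CPM in CD24- and 173, 199 and 192 CPM in CD24+. All CD24+ libraries lay below all CD24- libraries, at 0.715-fold, a log2 change of -0.48 ± 0.08 (edgeR adjusted p = 9.76e-04). None of the other 5 ring subunits passed. Mcm2 had 298, 309 and 328 CPM against 281, 348 and 287 CPM, a change of -0.03. Mcm4 had 254, 262 and 279 CPM against 228, 304 and 257 CPM, a change of -0.01. Mcm5 stood on the other side of 0 with a change of 0.18 ± 0.12, from 193, 194 and 239 CPM to 215, 274 and 221 CPM. In each of these the groups overlapped, and CD24+ replicate 2 was the highest library.

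Mcm3 had a log2 change of -0.13 ± 0.11 and Mcm7 one of 0.09 ± 0.09. The interval of Mcm6 (-0.67 to -0.29) did not reach those of Mcm2 (-0.24 to 0.19), Mcm4 (-0.24 to 0.23), Mcm5 (-0.08 to 0.45) or Mcm7 (-0.11 to 0.28), and overlapped that of Mcm3 (-0.37 to 0.11). The differences between subunits were not themselves tested.

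Mcm10, which binds the ring and helps start the helicase, had 67.0, 72.1 and 74.5 CPM in CD24- and 51.5, 64.6 and 55.1 CPM in CD24+. It fell by 0.31 ± 0.10 (edgeR adjusted p = 0.0283), and lost the call without CD24- replicate 2 (edgeR adjusted p = 0.0775) or replicate 3 (edgeR adjusted p = 0.0579) and without CD24+ replicate 1 (edgeR adjusted p = 0.0651) or replicate 3 (edgeR adjusted p = 0.0916). Gins2, a subunit of GINS, had 23.8, 25.3 and 25.8 CPM against 33.8, 33.4 and 30.5 CPM with no overlap, a rise of 0.38 ± 0.10 (edgeR adjusted p = 0.0102), and did not pass without CD24- replicate 1 (edgeR adjusted p = 0.0531). Cdc45, by its older symbol, had a log2 change of 0.04 ± 0.09.

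Of the clamp loader genes, Rfc3, Rfc4 and Rfc5 rose, where 23.8% of all genes did, and the calls of Rfc3 and Rfc5 were lost in 8 and 10 of the 15 alternatives. RFC is a ring of the large subunit Rfc1 and the small subunits Rfc2 to Rfc5. Rfc4 had 28.5, 29.6 and 27.5 CPM in CD24- and 42.0, 36.0 and 36.0 CPM in CD24+, without overlap, and was 1.33-fold in CD24+ (log2 change 0.40 ± 0.10, edgeR adjusted p = 0.0083). Rfc3 had 26.8, 25.7 and 28.1 CPM against 33.1, 35.4 and 30.6 CPM, a rise of 0.30 ± 0.10 (edgeR adjusted p = 0.0353). Rfc5 had 67.1, 58.9 and 63.1 CPM against 74.5, 84.0 and 69.9 CPM, a rise of 0.27 ± 0.10 (edgeR adjusted p = 0.0395). In each the lowest CD24+ library lay above the highest CD24- library. Rfc1 (-0.01 ± 0.08) and Rfc2 (-0.05 ± 0.09) did not pass, with 95% intervals of -0.19 to 0.16 and -0.26 to 0.16.

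The calls of Rfc3 and Rfc5 were lost in many alternatives, while their changes stayed above 0 in all of them. The changes ran from 0.19 to 0.34 for Rfc3 and from 0.15 to 0.32 for Rfc5. Rfc3 did not pass without CD24- replicate 1 (edgeR adjusted p = 0.1003) or replicate 2 (edgeR adjusted p = 0.123), or without CD24+ replicate 1 (edgeR adjusted p = 0.0634) or replicate 2 (edgeR adjusted p = 0.126). Rfc5 passed only without CD24+ replicate 3 among the 6 libraries left out in turn, with the highest edgeR adjusted p of 0.151 without CD24- replicate 2 or CD24+ replicate 2. Neither passed with DESeq2 (adjusted p = 0.0742 for Rfc3 and 0.0565 for Rfc5). Rfc4 kept its call under all 15 alternatives, at 0.29 to 0.43.

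Pcna, the clamp, had 432, 438 and 456 CPM in CD24- and 510, 533 and 459 CPM in CD24+, so the groups did not overlap, but CD24+ replicate 3 lay just above CD24- replicate 3. The change of 0.18 ± 0.08 did not pass (edgeR adjusted p = 0.0992; 95% interval -0.00 to 0.36). Pcna has near-identical copies in the genome. By reads that matched transcripts of Pcna alone, the groups were again apart and the change was 0.22 ± 0.09 (edgeR adjusted p = 0.0689). With each distinct sequence counted only once, which flattens abundant genes, it was -0.14. The 6 clamp and loader genes had a median change of 0.23.

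**Figure D4:**
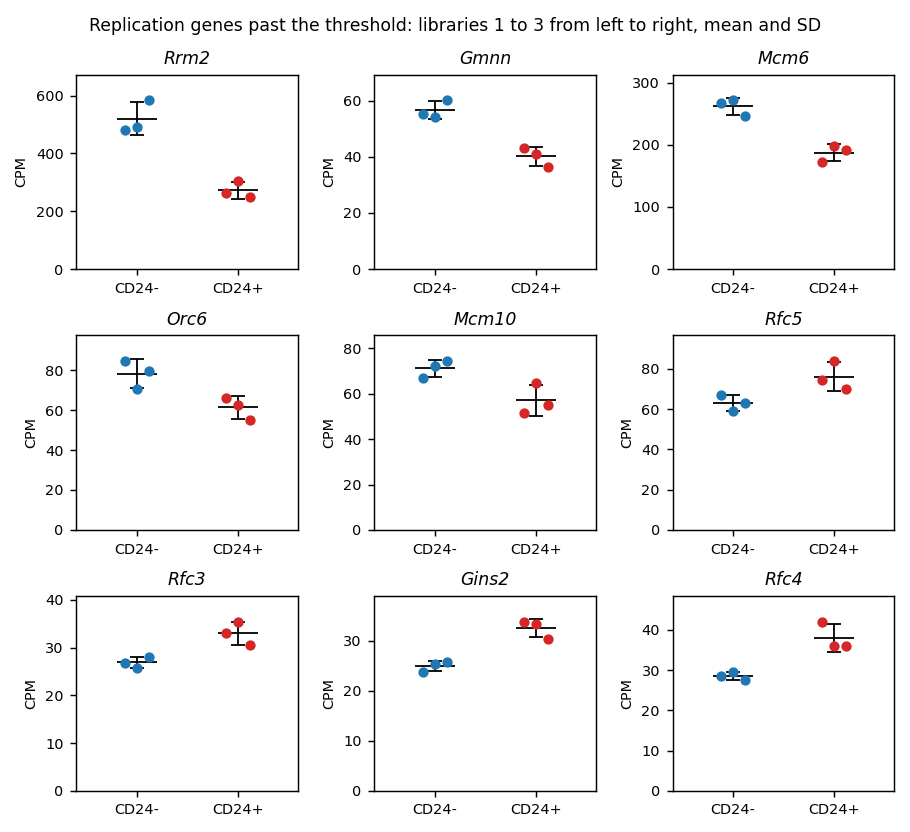
CPM of the 9 replication genes past the threshold in each library (points, replicates 1 to 3 from left to right), with the mean and SD of 3 libraries per group; every axis starts at 0. CD24+ lay wholly below CD24- for Rrm2, Gmnn, Mcm6, Orc6 and Mcm10 and wholly above it for Rfc5, Rfc3, Gins2 and Rfc4. Of the 35 genes matched by symbol 22.9% were called, against 46.1% of all genes, and Orc6 is shown beside them. Pcna and Pold2, which were not called and are not shown, also lay wholly above.

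None of the 7 polymerase and primase genes passed, where 46.1% of all genes did, and their median change was 0.02. Pola1, the catalytic subunit of polymerase alpha, had 99.9, 106 and 109 CPM against 89.9, 113 and 106 CPM, a change of -0.02 ± 0.10. Pold1, the catalytic subunit of polymerase delta, had a log2 change of 0.13 ± 0.10. Pole, that of polymerase epsilon, had the largest SE of the 35, with 96.4, 93.3 and 103 CPM against 72.6, 109 and 95.1 CPM and a change of -0.07 ± 0.13. Pold2, the second subunit of polymerase delta, had 52.3, 58.2 and 54.5 CPM against 59.5, 64.2 and 59.7 CPM without overlap, and did not pass (0.15 ± 0.09, edgeR adjusted p = 0.165). Pola2, Prim1 and Prim2, the other members of the alpha and primase complex, had log2 changes of -0.11, 0.05 and 0.02.

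The single-strand binding genes Rpa1 and Rpa2 did not pass either. Rpa2 had 58.1, 59.9 and 63.8 CPM in CD24- and 46.7, 58.8 and 45.9 CPM in CD24+. The groups overlapped by CD24+ replicate 2, and the change was -0.26 ± 0.11 (edgeR adjusted p = 0.0794), whereas Rpa1 had a log2 change of 0.05 ± 0.08. Of the genes that finish Okazaki fragments, the nuclease Fen1 had a log2 change of -0.12 ± 0.11 and the ligase Lig1 one of -0.13 ± 0.11. Only 343 of 2235 exonic read positions of Fen1 are unique to it. By reads that matched transcripts of Fen1 alone, its mean in CD24- was 10.5 CPM, against 159 CPM by annotation, and its change was -0.18 ± 0.19. The chromatin assembly genes Chaf1a and Chaf1b had log2 changes of 0.01 and -0.04, and Slbp, which binds histone messengers, had a log2 change of 0.07 ± 0.08.

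Annotation limited Gins1 and Orc1. Reads were therefore also matched by exact sequence to the GENCODE M21 transcripts of single genes, an alternative chosen after seeing the data. For Gins1, a GINS subunit at chr2:150905400-150931280 of GRCm38, 1072 reads matched, all under another annotation or none. Its level by these reads was 10.4, 10.7 and 13.5 CPM in CD24- and 15.7, 19.6 and 15.4 CPM in CD24+, without overlap, a rise of 0.56 ± 0.16 (edgeR adjusted p = 0.0143). For Orc1, at chr4:108579423-108614833, 1018 matching reads lay under another annotation or none. Its level was then 15.0, 18.4 and 19.0 CPM against 15.0, 18.0 and 14.9 CPM, a change of -0.12 ± 0.14 with overlapping groups. On this basis 4 of the 35 rose (23.8% of all genes) and 3 fell (22.3%), since Mcm10 did not pass (-0.26, edgeR adjusted p = 0.0531).

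The same matching gave levels per kilobase of exonic sequence unique to a gene, so that genes can be ranked. Rrm2 stood first in CD24- at 266 ± 31.4 CPM per kilobase (SD, n = 3), with Pcna next at 238 ± 6.07. The spreads of these neighbours touched. In CD24+ the order was the reverse, with Pcna at 281 ± 27.9 and Rrm2 at 145 ± 16.5 CPM per kilobase, the latter near Tk1 at 164 ± 7.47. Mcm6, at 69.9 ± 3.75 CPM per kilobase in CD24- and 50.3 ± 3.24 in CD24+, had the lowest mean of the ring subunits in both groups, with a spread that overlapped that of Mcm5 (75.0 ± 8.53) in CD24-. Orc1 was the lowest of all, at 8.59 CPM per kilobase in CD24- and 7.77 in CD24+.

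Of the reads annotated to the 35 genes, those outside their transcripts made up 3.60%, 3.51% and 4.43% in CD24- and 2.03%, 3.04% and 3.01% in CD24+. The groups did not overlap in this share, which ran from 0.757% for Rrm1 to 13.96% for Prim2 among the genes. The transcript matching above leaves such reads out, but it also drops shared reads and adds reads under other annotations. The part of this share alone in the changes was not tested.

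Promoter sequences were compared because E2F factors bind many replication genes at their starts. Windows of 250 bases before to 50 bases after the start were taken from RefSeq (GRCm38.p6), which gave 1 or more windows for 33 of the 40 genes, and the 250 bases before the start are printed. The octamers TTTCCCGC, TTTGGCGC, TTTGCCGC and TTTCGCGC were searched on both strands of the whole window and are in capitals below. Mcm6, which fell, and Mcm5, a ring subunit that was not called, are shown as promoters with matches. Rrm2 and Rfc4, which moved most in each direction among the genes with an annotation, are shown as promoters without any.
Mcm6: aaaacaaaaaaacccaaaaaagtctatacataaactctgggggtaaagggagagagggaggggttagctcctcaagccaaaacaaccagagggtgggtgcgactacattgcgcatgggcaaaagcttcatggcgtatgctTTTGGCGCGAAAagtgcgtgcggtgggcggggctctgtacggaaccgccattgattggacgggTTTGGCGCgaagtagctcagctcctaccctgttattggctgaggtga
Mcm5: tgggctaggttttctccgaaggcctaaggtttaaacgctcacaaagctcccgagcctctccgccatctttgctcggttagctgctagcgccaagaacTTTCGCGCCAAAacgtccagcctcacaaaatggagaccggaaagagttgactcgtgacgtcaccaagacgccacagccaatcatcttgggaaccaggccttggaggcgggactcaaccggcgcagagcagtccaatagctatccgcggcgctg
Rrm2: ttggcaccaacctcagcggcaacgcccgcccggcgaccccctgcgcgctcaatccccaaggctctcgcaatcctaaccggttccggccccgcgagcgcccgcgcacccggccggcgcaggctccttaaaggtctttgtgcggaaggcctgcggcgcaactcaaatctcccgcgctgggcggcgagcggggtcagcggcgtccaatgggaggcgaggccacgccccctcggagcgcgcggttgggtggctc
Rfc4: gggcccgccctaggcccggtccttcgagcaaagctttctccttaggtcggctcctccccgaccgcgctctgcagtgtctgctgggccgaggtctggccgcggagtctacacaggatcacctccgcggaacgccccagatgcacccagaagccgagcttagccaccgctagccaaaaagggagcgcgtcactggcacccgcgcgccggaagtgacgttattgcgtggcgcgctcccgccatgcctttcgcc
The Mcm6 sequence lies at chr1:128359706-128359955 on the minus strand, with matches that begin at -110, -106 and -47 before the start, of which the first pair overlap. The Mcm5 sequence lies at chr8:75109259-75109508 on the plus strand, with overlapping matches at -153 and -149. The Rrm2 sequence lies at chr12:24708004-24708253 on the plus strand and the Rfc4 sequence at chr16:23127731-23127980 on the minus strand.
Of the 33 genes, 11 (33.3%) held a match in any of their whole windows, against 704 of all 27025 genes (2.60%). Those 27025 are all genes with a window, including genes not tested for expression here, and a share over expressed genes alone was not taken. Within the 250 bases before the start 7 did (21.2%), against 583 of all genes (2.16%), since Cdt1, Lig1, Mcm3 and Pold1 matched only after the start. Before the start, a match was held by 1 of the 3 genes that rose and have a window (Rfc3, Rfc4, Rfc5), by 1 of the 4 that fell and have one (Mcm6, Mcm10, Rrm2 and Orc6) and by 5 of 26 others, of which 9 did so in the whole window.

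Other replication factors were taken from a separate list of 46 genes. Of these 8 rose and 8 fell (34.8% called, against 46.1% of all genes), and the median change was -0.03. Shmt1, which feeds one-carbon units to thymidylate synthesis, had 60.6, 60.1 and 60.7 CPM in CD24- and 29.6, 32.3 and 29.0 CPM in CD24+. It fell by 0.99 ± 0.09 (edgeR adjusted p = 8.82e-06), with groups far apart. Pold4, a small subunit of polymerase delta, fell by 0.90 ± 0.11, from 36.8, 35.7 and 33.3 CPM to 20.9, 17.7 and 18.7 CPM. Those that fell also included Ticrr, Chtf18, Dnmt1, Chtf8 and Pold3.

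Among those that rose, Mcm8, a helicase related to the Mcm ring, had 19.9, 18.4 and 21.8 CPM in CD24- and 36.8, 33.0 and 33.9 CPM in CD24+, a rise of 0.78 ± 0.11. Mtbp, a partner of Ticrr in origin firing, rose by 0.75 ± 0.09 (edgeR adjusted p = 6.8e-05) while Ticrr fell by 0.43 ± 0.11 (edgeR adjusted p = 0.00886). Dscc1, of an alternative clamp loader, rose by 0.89 ± 0.18 at a low level. It had 4.95, 5.12 and 6.99 CPM in CD24- and 9.13, 11.1 and 10.9 CPM in CD24+. The others were Donson, Pole2, Rnaseh2c, Dck and Hells. Without CD24- replicate 1, 5 of the 46 rose, where 19.3% of all genes did. Without CD24+ replicate 2, 5 rose and 11 fell, where 22.8% and 21.7% of all genes did.

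Of 25 regulators of E2F and S-phase entry, 5 rose and 6 fell (44.0% called, against 46.1% of all genes), with a median change of -0.14. Rb1, whose product holds E2F factors inactive, had 27.8, 25.3 and 25.4 CPM in CD24- and 51.2, 45.4 and 65.8 CPM in CD24+, a rise of 1.05 ± 0.14 (edgeR adjusted p = 1.62e-04) with no overlap. Its relative Rbl1 rose by 0.44 ± 0.08, as did E2f1, an activating E2F (0.39 ± 0.11), Tfdp2, a partner of E2F factors (0.43 ± 0.12), and Lin52 (0.41 ± 0.15). E2f3, another activating E2F, fell by 0.69 ± 0.12, and E2f4, a repressing one, fell by 0.50 ± 0.08. Ccne1 (cyclin E), Cdk2, its kinase, Cdc25a, the phosphatase that switches Cdk2 on, and E2f7 fell by 0.48, 0.27, 0.37 and 0.28. The count of 6 that fell became 3 without CD24- replicate 1, where 16.8% of all genes fell, and 2 without CD24+ replicate 3, where 17.8% did.

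Mitotic genes were measured as another sign of cycling cells. Of 19 tested, Ube2c (0.36), Ccnb2 (0.34), Nusap1 (0.33) and Bub1 (0.24) rose and Cenpf fell (-0.67 ± 0.17), with a median change of -0.03, where 23.8% of all genes rose and 22.3% fell. Without CD24+ replicate 2 the number that fell was 5, where 21.7% of all genes fell. Of 58 histone cluster genes, 15 could be tested, Hist3h2a rose (0.79), Hist1h2bg, Hist1h2bc, Hist1h2bn and Hist1h2bl fell (-1.36 to -0.56), and the median was -0.30, against the same shares of all genes. Histone genes are near-identical copies and most of their messengers lack a poly-A tail, so their values here are uncertain.

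**Figure D5:**
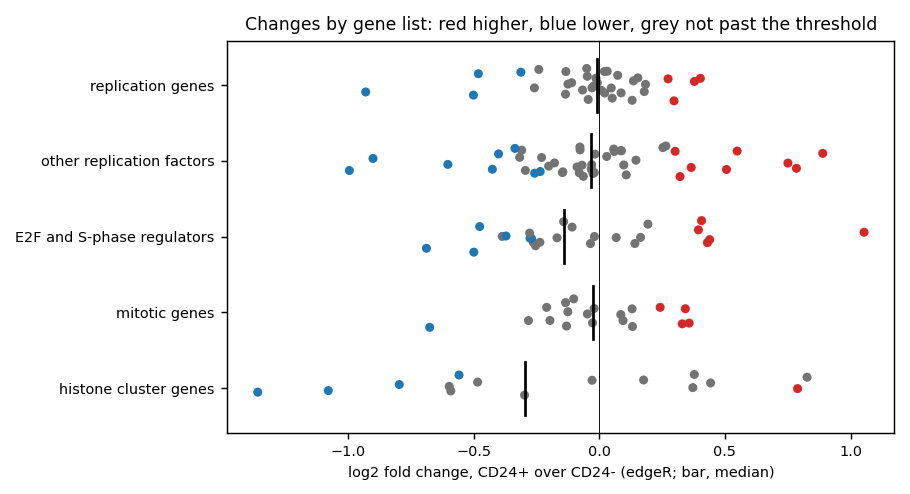
Log2 fold change of each tested gene (points), CD24+ over CD24-, in 5 gene lists, with the list's median as a black bar, red for genes that rose, blue for genes that fell and grey for the rest. Medians of the replication genes, the other replication factors and the mitotic genes were -0.01, -0.03 and -0.03, and those of the regulators and histone cluster genes were -0.14 and -0.30.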

How the data were processed

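Messenger RNA libraries of sorted CD24- and CD24+ Mvt1 cells, 3 per group, were sequenced by the authors as single-end 51-bp reads without strand marking. The authors trimmed reads to 47 nt, collapsed identical ones and mapped each by exact match. They deposited, per library, the count of each mapped sequence with 1 position and 1 annotation, neither normalized nor pooled. The build mm9 is named in the submitters' processing notes, and the mapping tool is not given in the sources used here. Exact matching loses most reads over exon junctions. A gene with sequence in common with another gene's transcripts (such as Pcna, Fen1 or Mcm7), by a near-identical copy or by overlap, can share reads.

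Counts were summed per annotation. Reads annotated to repeats (7.56% to 10.2%), small RNA (0.356% to 0.469%) or nothing (16.9% to 20.2%) did not enter gene totals. Genes passing filterByExpr were tested with edgeR 4.0.16 (TMM, quasi-likelihood, Benjamini-Hochberg, threshold 0.05) in R 4.3.3. CPM is per 1000000 gene reads after TMM. Libraries of a group differed by more than sampling noise. The ratio of chi-square to its degrees of freedom was 1.72 between CD24- replicates 1 and 2. It was 9.77 to 15.9 between the other pairs of a group, so CD24- replicates 1 and 2 were the most alike. Replicate numbers did not pair libraries (correlations 0.01, -0.28 and -0.33). Genes named are all members and, in the lists of other replication factors, regulators, mitotic and histone genes, those called, except for a result that is not reported here. Marker genes were named after their values were seen. Members and lists were chosen with earlier results of these data known. Alternatives were DESeq2 1.42.0, scaling by library totals, quantile normalization with 10 added and limma 3.58.1, other filters, each sequence counted once, thinning to the shallowest library, a replicate block, each library left out, transcript matching and a log2 change minimum of 0.3. The test was also run on simulated data with the same spread between replicates set for every gene. Its outcome is not given and does not bear on the calls here. Protein sequences were not analysed here.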

Additional observations from a re-analysis of the deposited data

Results flagged for a closer look

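Gins1, with 0 annotated reads, and Orc1, with 18 to 67 per library under its older symbol, were the 2 members for which most reads that matched their transcripts lay under another annotation or none. For Gins1, 1072 reads over the 6 libraries matched its GENCODE M21 transcripts and lay under another annotation or none. For Orc1 this held for 1018 of 1202 reads (84.7%). Such reads were also above 1000 for Slbp (2143), Tk1 (1649), Tyms (1509), Rrm1 (1172) and Rfc5 (1153), where they made up 4.84% to 26.1% of the matching reads. The levels of Gins1 and Orc1 by matching reads are in the report.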

How the results depend on the processing

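Of the 8 called members, Rrm2, Mcm6, Gmnn and Rfc4 kept their calls under all 15 alternatives. Gins2 lost its call in 1, Mcm10 in 6, Rfc3 in 8 and Rfc5 in 10 of them, and Orc6 in 3 of 14. The cause was not tested. The number of all genes called was 3695 to 5495, and no scaling moved the median of all genes by over 0.1.

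The number of members that rose was 2 rather than 4 with DESeq2, with each sequence counted once, with thinned counts, with the replicate block and with a minimum change of 0.3, where 22.2%, 19.4%, 21.9%, 21.4% and 22.2% of all genes rose. Counting each sequence once gave 5 higher and 3 lower among the other replication factors, 3 lower regulators, 2 lower histone cluster genes and 1 higher mitotic gene. Of all genes, 19.4% rose and 14% fell in that setting, against 23.8% and 22.3% in the main fit. DESeq2 gave 0 higher and 2 lower histone cluster genes (22.2% and 22.3% of all genes), and quantile normalization gave 0 higher (21.4%). Thinning gave 2 lower histone cluster genes and 2 lower mitotic genes (21.5% of all genes lower). With the replicate number as a block, 4493 genes were called (21.4% of all genes higher, 19% lower). In that fit 5 of the other replication factors rose, 3 regulators fell and 0 histone cluster genes rose, but the numbers did not pair the libraries.

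With each library left out in turn, 18.8% to 24.9% of all genes rose and 16.8% to 22.5% fell, 1 to 4 members rose and 3 to 7 fell, 5 to 8 other factors rose, 3 to 7 regulators rose and 2 to 6 fell, 0 to 1 histone cluster genes rose and 2 to 6 fell, and 1 to 5 mitotic genes fell.

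Changes that crossed 0 were all of uncalled members. Values on the other side of 0 were -0.0041 for Chaf1a with DESeq2. With library totals they were -5.6e-04 for Prim2, -0.0027 for Tk1 and -0.013 for Chaf1a. After quantile normalization they were -0.073 for Orc1 and 0.0083 for Pola1. With each sequence counted once they were -0.0074 for Mcm7, 9.4e-04 for Pole, -0.14 for Pcna, 0.0020 for Rfc1, -0.059 for Rpa1, -0.067 for Tk1, -0.018 for Chaf1a, 0.014 for Chaf1b and -0.067 for Slbp. With thinning they were -0.038 for Prim2 and -0.019 for Chaf1a. With transcript matching they were 0.0025 for Mcm4, -5.9e-04 for Chaf1a and -0.12 for Orc1. Leaving out libraries gave -0.020 to 0.12 for Cdc6, -0.014 to 0.070 for Cdc45, -0.021 to 0.038 for Prim2, -0.028 to 0.055 for Tk1, -0.080 to 0.019 for Rfc1, -0.11 to 0.0016 for Rfc2. It gave -0.064 to 0.062 for Chaf1a, -0.13 to 0.015 for Cdt1, -0.14 to 0.017 for Mcm2, -0.13 to 0.074 for Mcm4, -0.099 to 0.054 for Pola1, -0.20 to 0.0065 for Fen1. The others were -0.12 to 0.012 for Chaf1b, -0.21 to 0.060 for Pole, -0.051 to 0.30 for Orc1, -0.0039 to 0.12 for Mcm7, -0.0072 to 0.081 for Rpa1.

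With 3 plates per group, the SE of a change was 0.08 to 0.13 on the log2 scale over the 35 members matched by symbol.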
